A study of Mus musculus with 27 samples.

Results

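The transcripts of the mouse mitochondrial genome were taken as all genes whose symbol starts with mt- in GENCODE release M21, after the gene identifiers of the 27 count files had been matched to that release without their version. Of 51826 identifiers, 51633 matched and 37 were members: 13 messages, 2 ribosomal RNAs and 22 transfer RNAs. The plus strand carried 28 of them and the minus strand 9, namely mt-Nd6 and 8 transfer RNA genes. The samples were mouse embryonic stem cells of the E14 line, either wild type or labelled as a knockout (KO) of Quaking or of Sam68. Quaking and Sam68 are RNA-binding proteins of the STAR family. All lines were sampled undifferentiated at day 0 and as embryoid bodies, cell aggregates that differentiate in culture, at days 3 and 10, with 3 biological replicates in each of the 9 groups. Each KO is represented by 1 group label, and how many clones stand behind it is not given in the sources used here. Total RNA was depleted of ribosomal RNA and sequenced from stranded libraries with reads of 125 bases from each end.

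The mitochondrial genome is a small circle transcribed from both strands into long precursors that span many genes. Transfer RNAs lie between most messages and ribosomal RNAs, and cutting at the transfer RNAs releases the others. The messages encode core subunits of respiratory complexes I (mt-Nd genes), III (mt-Cytb) and IV (mt-Co genes) and of the ATP synthase (mt-Atp genes), and all other subunits come from nuclear genes. Stem cells are known to lean on glycolysis and to make more use of respiration as they differentiate, above all in heart muscle.

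The mitochondrial genome also has copies in the nuclear chromosomes, and a read that fits both places has no certain origin. Windows of 50 bases from each member were searched in all annotated nuclear transcripts. On chromosome 1, 7 pseudogenes on the minus strand between 24611535 and 24616197 (build GRCm38) lie in the order of positions 6381 to 11042 of the mitochondrial genome. This span of 4662 bases, gaps between the pseudogenes included, is called the copied stretch below. The pseudogenes themselves aligned over 4149 bases, of which 7 differed, and the bases between them were not compared. By position the stretch holds 6 whole messages (mt-Co2, mt-Atp8, mt-Atp6, mt-Co3, mt-Nd3 and mt-Nd4l) and part of mt-Co1 and mt-Nd4. mt-Atp8 lies mostly between the counterparts of Gm28661 and Gm10925 and shares 43 bases with the latter, and 0 of its 155 windows matched an annotated nuclear transcript. The other 5 messages, mt-Nd1, mt-Nd2, mt-Nd5, mt-Nd6 and mt-Cytb, lie outside it. This division was drawn after the values had been seen. The sequences show how close the copies are. The first set gives 120 bases of mt-Co1 with its copies on chromosomes 1 and 2, in which capitals mark the bases that differ from mt-Co1 (6 in Gm29216 and 3 in Gm13340). The second gives the first 120 bases of mt-Co2 with its chromosome 1 copy Gm28661, which differ at 0 positions there. All were read 5′ to 3′ from the GENCODE transcripts, from the plus strand of the mitochondrial genome and the minus strand of chromosomes 1 and 2.
mt-Co1 (chrM:6381-6500): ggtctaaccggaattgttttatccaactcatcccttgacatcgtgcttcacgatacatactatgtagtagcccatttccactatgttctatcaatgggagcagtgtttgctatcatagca
Gm29216 (chr1:24616078-24616197): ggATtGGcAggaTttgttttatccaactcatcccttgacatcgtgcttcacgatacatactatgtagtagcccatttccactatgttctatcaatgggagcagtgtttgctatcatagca
Gm13340 (chr2:22588475-22588594): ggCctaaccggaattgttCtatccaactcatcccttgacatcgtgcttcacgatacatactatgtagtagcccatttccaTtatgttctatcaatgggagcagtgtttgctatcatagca
mt-Co2 (chrM:7013-7132): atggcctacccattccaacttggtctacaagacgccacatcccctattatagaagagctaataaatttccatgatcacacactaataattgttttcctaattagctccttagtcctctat
Gm28661 (chr1:24615446-24615565): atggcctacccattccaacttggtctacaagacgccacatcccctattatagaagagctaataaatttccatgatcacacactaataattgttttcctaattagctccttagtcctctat

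Several features of the libraries bear on every result. Library totals ran from 56461674 to 77257496 counts. In wild-type and Quaking KO cells, replicate 1 held the highest share of mitochondrial counts on each of the 3 days, and in these lines the library numbers in the labels follow the replicate. The Sam68-labelled libraries carry a separate run of library numbers, so any batch of libraries and their Sam68 label cannot be told apart. They also differed in RNAs other than the members: pseudogenes held 0.383% to 0.529% of counts against 0.584% to 0.951% in the other 18 libraries. The nuclear RNA Malat1 averaged 3467 counts per 1000000 counts of a library (CPM) at day 0 in the Sam68-labelled libraries and 1257 in wild type, and the small nuclear RNA Rn7sk averaged 3908 and 11253. What part the batch or the RNA fraction has in the results below was not tested. Qk, the Quaking gene, was lower but not lost in the Quaking KO line (134 to 145 CPM at day 0 against 208 to 216). Khdrbs1, which encodes Sam68, stood at 92.9 to 99.9 CPM in the Sam68-labelled libraries of day 0 and 88.1 to 92.3 in wild type (log2 fold change -0.03, SE 0.04). At day 3 it stood at 97.3 to 111 CPM against 148 to 164 (-0.70, SE 0.06, adjusted p = 1.2e-07), and at day 10 at 98.9 to 103 against 106 to 162 (-0.25, SE 0.13, adjusted p = 0.13). Whole-gene counts cannot show whether part of it was deleted. At day 0, stem cell markers summed to 3581 to 3810 CPM in wild type and 4168 to 4561 in Quaking KO. The Sam68-labelled libraries, at 3114 to 3211, lay below both without overlap. Extraembryonic endoderm markers summed at day 0 to 27.8 to 28.1 CPM in wild type and 14.6 to 16.6 in Quaking KO. In the Sam68-labelled libraries they summed to 142 to 149 CPM.

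Mitochondrial RNA was a large part of every library, and its share fell as embryoid bodies formed. In wild-type cells the 37 genes held 15.4%, 13.1% and 12.7% of counts at day 0 in replicates 1, 2 and 3, then 10.7%, 7.30% and 6.48% at day 3 and 11.4%, 9.44% and 9.57% at day 10. The day 0 and day 3 libraries did not overlap. Quaking KO cells held 16.5%, 12.2% and 12.9% at day 0, 12.3%, 6.32% and 6.32% at day 3 and 10.8%, 8.68% and 9.70% at day 10. Here replicate 1 at day 3 lay within the day 0 range. Sam68-labelled cells held 15.2%, 14.4% and 14.3% at day 0, 12.3%, 12.2% and 12.8% at day 3 and 9.48%, 10.0% and 10.7% at day 10. All 3 of their day 3 libraries lay above all 3 wild-type ones, while at days 0 and 10 these lines overlapped. In bulk samples, fewer cells of a type and less RNA per cell cannot be told apart.

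**Figure D1:**
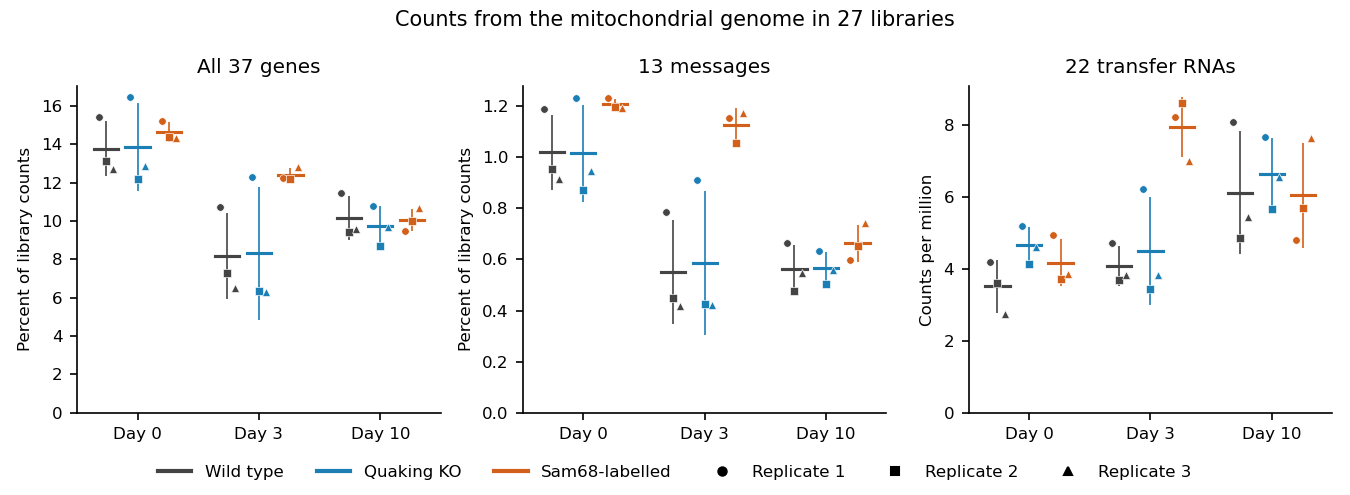
Share of library counts from all 37 mitochondrial genes (left) and from the 13 messages (middle), in percent, and the sum of the 22 transfer RNAs in CPM (right), by day and line. Symbols are single libraries by replicate number, bars the mean and vertical lines the SD of 3 libraries. The 3 Sam68-labelled libraries of day 3, at 12.2% to 12.8%, lie above the 3 wild-type ones, at 6.48% to 10.7%.

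The ribosomal RNAs supplied most of these counts although ribosomal RNA had been depleted. mt-Rnr2, the large ribosomal RNA of the mitochondrial ribosome, made up 86.6% to 91.2% of mitochondrial counts in 26 libraries and 81.6% in replicate 1 of wild type at day 10. mt-Rnr1, the small ribosomal RNA, stood at 14422 CPM in that library, against 4111 and 3854 CPM in replicates 2 and 3. Per kilobase, mt-Rnr2 exceeded mt-Rnr1 by 3.91 times there and by 10.5 to 20.0 times in the other libraries. How far the depletion reached either RNA is not given in the sources used here, so these levels describe what was left after it.

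Among the messages, mt-Co1 of complex IV was the highest per length and mt-Nd4l of complex I the lowest in wild type at day 0. In CPM per kilobase, mt-Co1 stood at 3771 ± 505 (SD, n = 3), mt-Nd1 at 1806 ± 297, mt-Cytb at 1178 ± 164, mt-Nd2 at 477 ± 87.3, mt-Nd5 at 265 ± 46.7 and mt-Nd4 at 170 ± 29.3. The libraries of each of these 6 did not overlap those of the next gene in the order. mt-Nd6, the only message of the minus strand, followed at 38.9 ± 14.8 and overlapped mt-Co3 at 29.4 ± 0.989, which overlapped mt-Atp8 at 28.3 ± 5.73 and, through it, mt-Co2 at 28.3 ± 3.02. mt-Atp6 (13.8 ± 1.52), mt-Nd3 (11.3 ± 1.06) and mt-Nd4l (1.38 ± 0.540) came last. The 6 lowest of the 13 are the 6 inside the copied stretch, and for those with an annotated copy a low level cannot be told apart from reads left out or assigned to the copy. Whether the same holds for mt-Atp8 was not tested, since copies outside annotated transcripts were not searched. mt-Atp8 and mt-Atp6 also share 43 bases, and mt-Nd4l and mt-Nd4 share 7, which adds to the uncertainty of each.

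**Figure D2:**
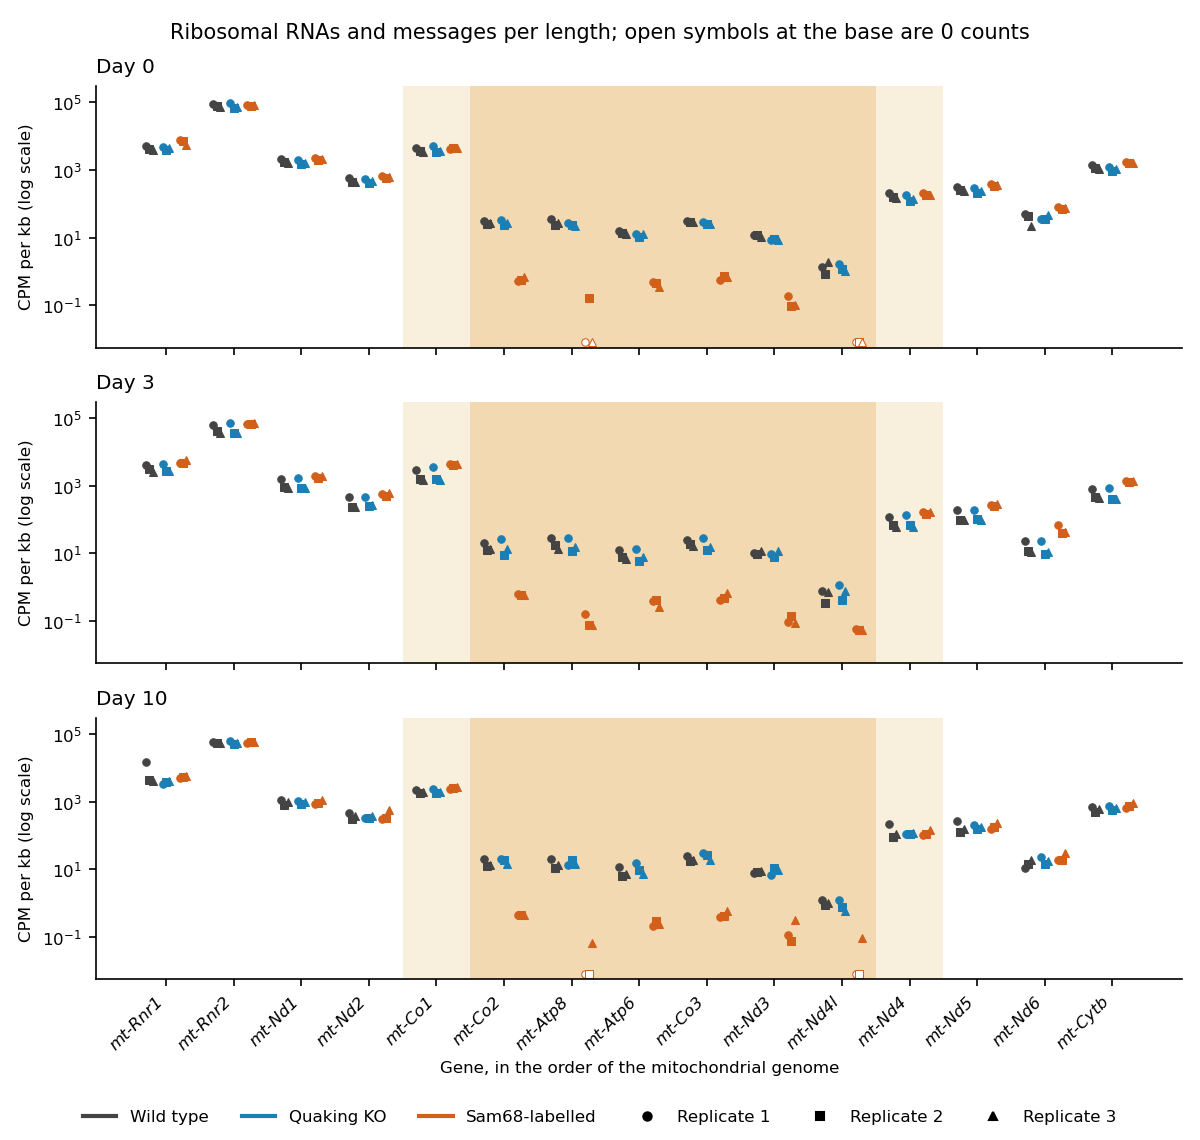
Level of the 2 ribosomal RNAs and 13 messages in CPM per kilobase (log scale), in genome order, with 1 panel per day and 1 symbol per library. Dark shading marks the 6 messages that lie by position wholly inside the copied stretch and light shading the 2 partly inside. In the dark area the Sam68-labelled libraries lie below all others on each day, and open symbols at the base are libraries with 0 counts.

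The 6 messages inside the copied stretch were nearly absent from the Sam68-labelled libraries on all 3 days. Their sum was 67.8, 58.3 and 59.7 CPM in wild type at day 0, 51.7, 35.2 and 34.2 at day 3 and 48.0, 31.8 and 34.7 at day 10. In the Sam68-labelled libraries it was 1.21, 1.34 and 1.28 CPM at day 0, 1.13, 1.14 and 1.17 at day 3 and 0.799, 0.880 and 1.06 at day 10. The 9 Quaking KO libraries, at 25.0 to 62.6 CPM, stood with wild type.

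Each of the 6 showed the same gap. mt-Co2, a subunit of complex IV, had 1449, 1179 and 1279 counts in wild type at day 0 and 22, 23 and 27 in the Sam68-labelled libraries, a log2 fold change of -5.69 (SE 0.18, adjusted p = 3.7e-15, edgeR quasi-likelihood test with Benjamini-Hochberg adjustment over all genes tested, as for every adjusted p here). At days 3 and 10 its log2 fold changes were -4.78 (SE 0.44) and -5.04 (SE 0.25). mt-Co3, also of complex IV, changed by -5.59 (SE 0.12), -5.32 (SE 0.36) and -5.34 (SE 0.24) at days 0, 3 and 10. mt-Atp6, of the ATP synthase, changed by -5.12 (SE 0.17), -4.73 (SE 0.42) and -4.95 (SE 0.40), and mt-Nd3, of complex I, by -6.51 (SE 0.22), -6.62 (SE 0.29) and -5.54 (SE 0.34). mt-Atp8, the smallest subunit message of the ATP synthase, had 0 to 2 counts in any Sam68-labelled library and 163 to 475 in any wild-type one. mt-Nd4l had 0 counts in all 3 Sam68-labelled libraries of day 0 and 17 to 39 in wild type, which is at least 8.08-fold lower when 3 counts per library are taken as the floor. All 6 passed the test on each of the 3 days under every alternative in which they were tested. The exception is mt-Nd4l at day 3, which did not pass the filter when only these groups were fitted. None of the 6 overlapped between wild type and the Sam68-labelled libraries. With these 6 included, 7, 6 and 6 members tested were lower without overlap at days 0, 3 and 10. In the other direction, 6, 14 and 3 members were higher without overlap. How many of all genes were without overlap was not counted.

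Counted over the whole gene, the neighbours of these messages did not show the gap. Whether the copied parts of mt-Co1 and mt-Nd4 share it was not tested, since whole-gene counts cannot show this. mt-Co1 ends within the copied stretch and stood at 6590, 6730 and 6617 CPM in the Sam68-labelled libraries of day 0 against 6717, 5502 and 5262 in wild type. Of its 50-base windows, 51.1% matched annotated nuclear transcripts, and 62.2% of those of mt-Nd4 did. Per kilobase, mt-Co1 exceeded mt-Co2 by 110 to 141 times in the 9 wild-type libraries and by 95.5 to 173 times in the Quaking KO ones, but by 5432 to 8240 times in the Sam68-labelled ones. The nuclear copies were also lower in the Sam68-labelled libraries. The 7 pseudogenes of chromosome 1 summed to 3.57 to 5.90 CPM there, against 21.8 to 65.5 CPM in the other libraries. Gm13340, a chromosome 2 copy of mt-Co1 with 97.6% of its aligned bases identical, had 26 to 61 counts against 852 to 3141. Gm13341, a chromosome 2 copy of mt-Co2, had 4 to 23 against 441 to 1374. Gm20594, a gene on chromosome 6 that shares 4.0% of its windows with the mitochondrial genome, in mt-Rnr2, had 0 to 19 against 652 to 1887. Gm28437 and Gm29216, the chromosome 1 copies of mt-Co3 and part of mt-Co1, averaged 7.56 and 7.19 CPM over all 27 libraries. Adding the counts of the 7 chromosome 1 copies to their mitochondrial genes left mt-Co2 at -4.82 (SE 0.16) at day 0 and mt-Nd3 at -2.29 (SE 0.10), and all 6 messages inside the stretch remained lower on each day. mt-Atp8 had no annotated copy to add, and the chromosome 1 bases between Gm28661 and Gm10925 were not compared with it. Whether reads with more than 1 possible origin were kept, dropped or shared out is not given in the sources used here, and the part of library batch, mapping and the Sam68 label in this difference cannot be told apart. The 6 messages are therefore described but not read as a change of mitochondrial RNA in what follows. They still enter the counts and medians over members. The doubt about read origin also covers the shared parts of mt-Co1 and mt-Nd4, and their differences below carry it.

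Most mitochondrial RNAs fell from day 0 to day 3 in wild-type cells. Of 21 members that passed the filter on low counts, 13 fell and 1 rose (background: 60.9% of all genes tested were called, 30.1% lower and 30.8% higher). Of the 13 messages 11 fell and none rose, and the median log2 fold change over the 21 members was -0.78, against 0.01 over all genes. The 11 were all 7 messages outside or partly inside the copied stretch, and mt-Co2, mt-Co3, mt-Atp6 and mt-Nd4l from inside it. mt-Co1 went from 6717, 5502 and 5262 CPM at day 0 to 4385, 2510 and 2311 at day 3, without overlap, and fell by 1.02 on the log2 scale (SE 0.21, adjusted p = 0.00076). mt-Cytb, the complex III subunit, went from 1559, 1280 and 1202 to 936, 539 and 500 CPM and fell by 1.13 (SE 0.21, adjusted p = 0.00033). mt-Nd6 fell by 1.44 (SE 0.33), mt-Nd5 by 1.14 (SE 0.28), mt-Nd4 by 1.10 (SE 0.30), mt-Nd1 by 0.80 (SE 0.21) and mt-Nd2 by 0.70 (SE 0.24). All 5 are complex I subunits. mt-Rnr2 fell by 0.85 (SE 0.17, adjusted p = 0.00081), whereas mt-Rnr1 did not pass the test (-0.50, SE 0.38). The member that rose was the transfer RNA mt-Tw (0.51, SE 0.20). mt-Nd2 lost its call with DESeq2 (adjusted p = 0.057) and without day 0 replicate 1 or day 3 replicate 2 or 3 (0.095, 0.094 and 0.092). mt-Tw lost it without day 3 replicate 1 or 2 or day 0 replicate 2 or 3 (0.12, 0.085, 0.082 and 0.15).

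Quaking KO cells showed the same direction over these days. Of 20 members tested, 13 fell and none rose (background: 69% called, 34.8% lower). They included all 7 messages outside or partly inside the copied stretch. mt-Co2 and mt-Co3 from inside it were also among them, and lost their calls under 4 and 6 alternatives. mt-Co1 went from 7570, 5234 and 5606 CPM to 5402, 2405 and 2358 and fell by 0.97 (SE 0.28, adjusted p = 0.0072). The highest day 3 library, replicate 1, overlapped the day 0 range. mt-Nd6 fell by 1.54 (SE 0.29), mt-Cytb by 1.05 (SE 0.25), mt-Nd5 by 1.00 (SE 0.23) and mt-Rnr2 by 0.86 (SE 0.23). Of the 20 members, 8 were called with DESeq2, 8 without day 0 replicate 1, and 7 without day 3 replicate 2 or without day 3 replicate 3.

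In Sam68-labelled cells 6 of 18 members tested fell from day 0 to day 3 and 2 rose (background: 72.9% called, 35.9% lower and 37% higher). The median was -0.16, against 0.00 over all genes. Only 10 of the 13 messages passed the filter here, so these counts do not cover the same members as in wild type. The difference from wild type is tested with the interactions. mt-Co1 stood at 6590, 6730 and 6617 CPM at day 0 and 6723, 6288 and 6861 at day 3, which overlap, and its log2 fold change of -0.04 (SE 0.04) did not pass the test. mt-Cytb went from 1940, 1825 and 1778 to 1583, 1425 and 1595 CPM and fell by 0.30 (SE 0.08, adjusted p = 0.0035). mt-Nd6 fell by 0.61 (SE 0.17), mt-Nd5 by 0.47 (SE 0.10), mt-Nd4 by 0.28 (SE 0.09), mt-Rnr1 by 0.41 (SE 0.10) and mt-Rnr2 by 0.28 (SE 0.04). mt-Nd4 lost its call without day 0 replicate 1 (adjusted p = 0.068) or day 3 replicate 2 (0.055). mt-Tw and mt-Tp rose by 1.00 (SE 0.20) and 0.98 (SE 0.13).

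From day 3 to day 10 few members were called in wild type or Quaking KO cells. In wild type, 3 of 21 members rose and 1 fell (background: 76.1% called, 39.6% higher and 36.5% lower), none of them a message outside the copied stretch. mt-Co1 stood at 3499, 2712 and 2966 CPM at day 10, within its day 3 range. mt-Rnr1 rose by 1.09 (SE 0.39, adjusted p = 0.020), and by 0.23 without day 10 replicate 1 (adjusted p = 0.16). That call was also lost with DESeq2 (0.057) and without day 3 replicate 2 or 3 (0.056 and 0.076). The other risers were the transfer RNAs mt-Tq (1.52, SE 0.30) and mt-Ty (1.45, SE 0.43), and mt-Nd3 fell by 0.49 (SE 0.12). Without day 3 replicate 1 the counts were 8 higher and 1 lower, and without day 10 replicate 1 they were 2 and 5. In Quaking KO cells 1 of 20 members was called, the transfer RNA mt-Tq, which rose by 1.59 (SE 0.28; background: 78.1% called, 41.1% higher). Without day 3 replicate 1 of that line 12 members rose, without day 3 replicate 2 the counts were 1 higher and 3 lower, and without day 3 replicate 3 they were 1 and 1. The share of all genes called with a library left out is not given here, so these counts cannot be set against it.

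In Sam68-labelled cells most messages fell between days 3 and 10. Of 18 members tested, 9 fell and 1 rose (background: 86% called, 42.5% lower and 43.5% higher), and all 7 messages outside or partly inside the copied stretch were among those that fell. mt-Co1 went from 6723, 6288 and 6861 CPM to 3696, 3957 and 4076, without overlap, and fell by 0.68 (SE 0.04, adjusted p = 1.7e-10). mt-Nd1 went from 1845, 1641 and 1883 to 799, 876 and 1079 CPM and fell by 0.88 (SE 0.08, adjusted p = 2.7e-08). mt-Nd6 fell by 1.08 (SE 0.18), mt-Cytb by 0.72 (SE 0.08), mt-Nd5 by 0.45 (SE 0.10), mt-Nd2 by 0.41 (SE 0.16), mt-Nd4 by 0.37 (SE 0.09) and mt-Rnr2 by 0.20 (SE 0.04). mt-Nd2 lost its call with DESeq2 (adjusted p = 0.145) and without any of 4 libraries, day 3 replicates 1 and 3 and day 10 replicates 1 and 2 (adjusted p from 0.059 to 0.12). These contrasts use libraries of 1 line and 1 run of library numbers only.

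**Figure D3:**
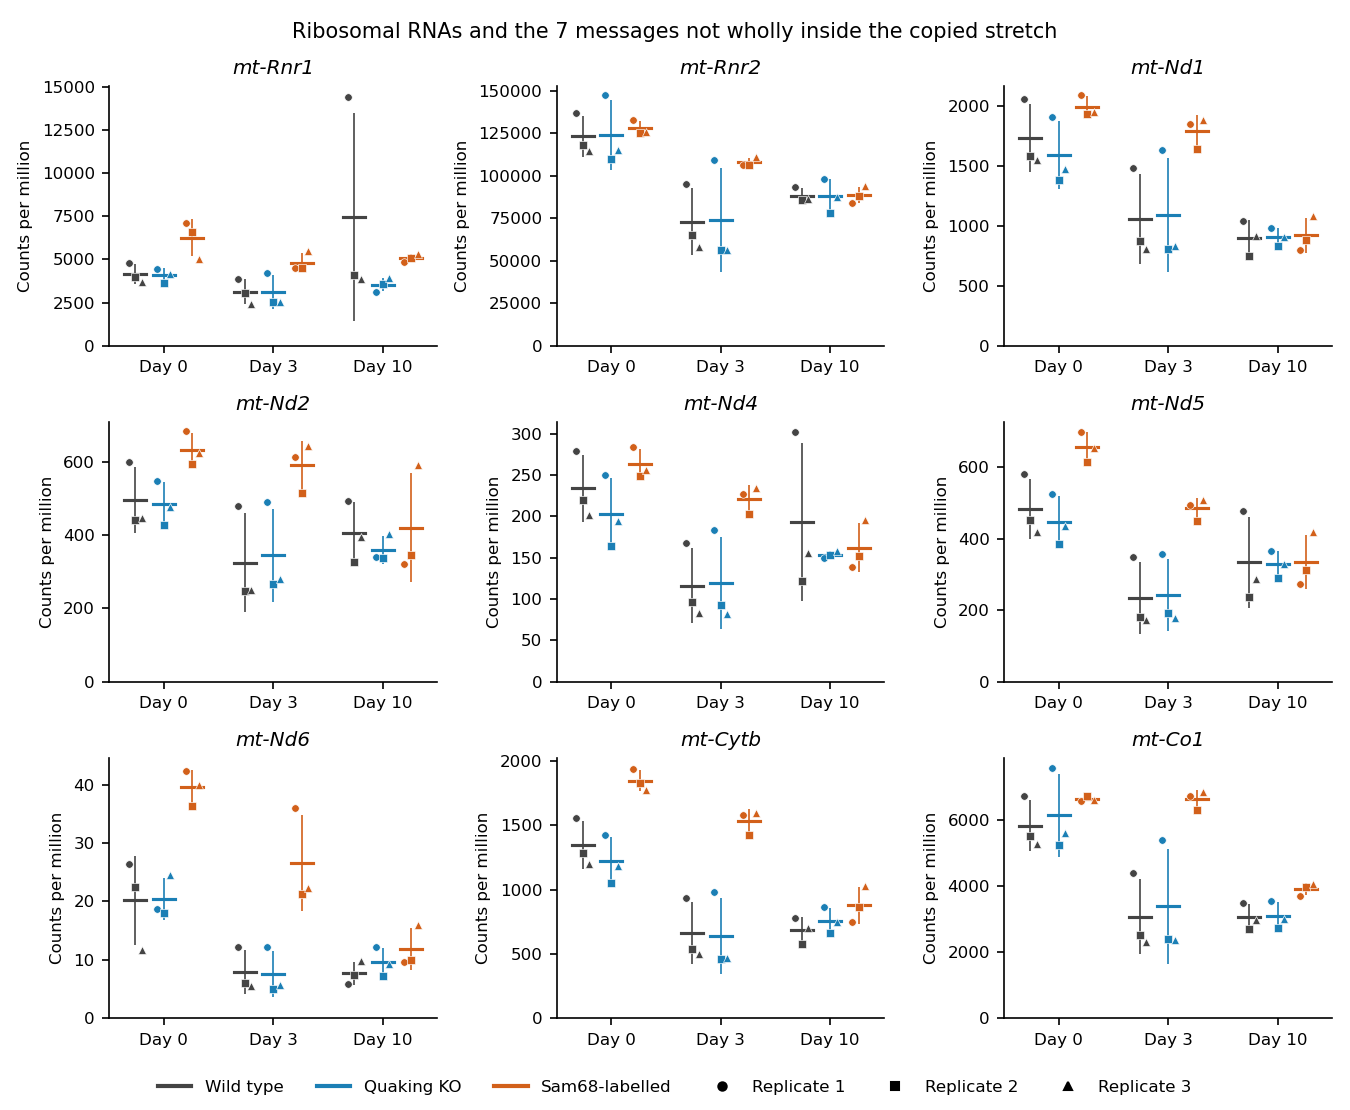
CPM of the 2 ribosomal RNAs and of the 7 messages not wholly inside the copied stretch, by day and line. Symbols are single libraries by replicate number, bars the mean and vertical lines the SD of 3 libraries. The Sam68-labelled level of mt-Co1 stays at 6288 to 6861 at day 3, when the wild-type libraries lie at 2311 to 4385.

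Set against wild type on the same day, the Sam68-labelled libraries had 17 of 21 members called at day 3, 13 of 20 at day 0 and 11 of 21 at day 10. Of all genes tested, 73.1%, 74.4% and 50.6% were called on these days. On each day, 6 of the member calls are the messages inside the copied stretch. At day 3, 11 of 21 members were higher and 6, the messages inside the copied stretch, lower (background: 73.1% of all genes called, 36% higher and 37.1% lower). All 7 messages outside or partly inside the copied stretch were among the higher ones. mt-Co1 stood at 6723, 6288 and 6861 CPM against 4385, 2510 and 2311, a log2 fold change of 1.02 (SE 0.28, adjusted p = 0.0037). mt-Cytb stood at 1583, 1425 and 1595 against 936, 539 and 500 CPM (1.13, SE 0.26, adjusted p = 0.0011). mt-Nd6 stood at 36.1, 21.3 and 22.3 against 12.2, 5.96 and 5.54 CPM (1.66, SE 0.32, adjusted p = 0.00023). mt-Nd5 (0.96, SE 0.26), mt-Nd4 (0.84, SE 0.26), mt-Nd2 (0.77, SE 0.24), mt-Nd1 (0.67, SE 0.25) and mt-Rnr1 (0.54, SE 0.19) also passed the test. mt-Rnr2 did not (0.48, SE 0.22, adjusted p = 0.063).

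Wild-type replicate 1 was the highest of its group at day 3 for each of these messages and for both ribosomal RNAs. With replicates 2 and 3 only of wild type and Quaking KO, an alternative chosen after the data had been seen, 14 members were higher and 6 lower, and mt-Co1 was at 1.37 (SE 0.05). The share of all genes called under that alternative is not given here. The calls of mt-Nd1, mt-Nd2, mt-Nd4 and mt-Rnr1 were lost with DESeq2 (adjusted p = 0.13, 0.078, 0.075 and 0.098) and without wild-type replicate 3 (0.11, 0.058, 0.055 and 0.096). mt-Nd1 and mt-Nd2 also lost theirs without wild-type replicate 2 (0.093 and 0.056), mt-Nd1 without Sam68-labelled replicate 1 or 3 (0.056 and 0.058) and mt-Rnr1 without Sam68-labelled replicate 3 (0.076). The calls of mt-Co1, mt-Cytb, mt-Nd5 and mt-Nd6 held under every alternative.

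At day 0, 6 of 20 members were higher and 7 lower in the Sam68-labelled libraries than in wild type (background: 74.4% called, 36.5% higher and 37.9% lower). mt-Nd6 was higher by 0.85 (SE 0.17, adjusted p = 0.00022), at 42.3, 36.4 and 40.0 CPM against 26.5, 22.5 and 11.6. mt-Rnr1 was higher by 0.47 (SE 0.11, adjusted p = 0.00065), mt-Cytb by 0.33 (SE 0.10) and mt-Nd5 by 0.31 (SE 0.11). The last 2 calls were lost with DESeq2 (adjusted p = 0.066 and 0.13), and that of mt-Nd5 without wild-type replicate 2 or 3 or Sam68-labelled replicate 1 (0.090, 0.078 and 0.065). mt-Co1 (0.06, SE 0.11), mt-Nd1 (0.08, SE 0.11), mt-Nd4 (0.04, SE 0.12), mt-Nd2 (0.23, SE 0.10) and mt-Rnr2 (-0.07, SE 0.09) did not pass the test. Besides the 6 messages inside the copied stretch, the transfer RNA mt-Tt was lower.

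At day 10, 5 of 21 members were higher and 6, the messages inside the copied stretch, lower (background: 50.6% called, 22.8% higher and 27.8% lower). mt-Co1 stood at 3696, 3957 and 4076 CPM against 3499, 2712 and 2966 (0.43, SE 0.12, adjusted p = 0.011), without overlap, and this call held under every alternative. mt-Cytb (0.43, SE 0.14) and mt-Nd6 (0.70, SE 0.24) passed the test too, but both lost the call with library totals as the only scaling (adjusted p = 0.0547 and 0.0504), without Sam68-labelled replicate 3 (0.064 and 0.12) and without wild-type replicate 2 (0.076 and 0.073). mt-Nd6 also lost it without wild-type replicate 1 (0.085) and with replicates 2 and 3 only of wild type and Quaking KO (0.0511). mt-Nd1, mt-Nd2, mt-Nd4, mt-Nd5 and both ribosomal RNAs did not pass.

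**Figure D4:**
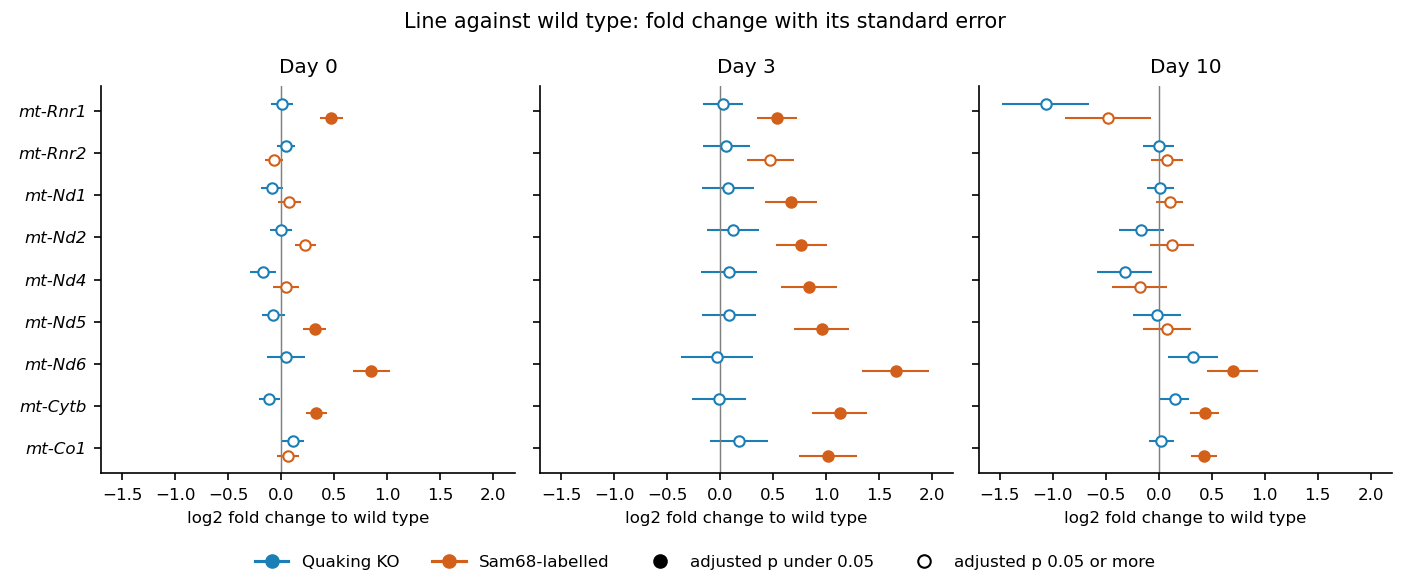
Log2 fold change against wild type of the 2 ribosomal RNAs and the 7 messages not wholly inside the copied stretch, for each KO label and day. Points are edgeR estimates, horizontal lines their standard error and filled points an adjusted p under 0.05. Of the 9 genes shown, 8 are filled for the Sam68 label at day 3, and none is filled for Quaking KO on any day.

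The change of the Sam68-labelled difference between days was tested itself, as an interaction of line and day. Between day 0 and day 3 it shifted higher for 7 of 20 members and lower for none (background: 33.8% called, 18% higher). The 7 were mt-Co1 (0.98, SE 0.22, adjusted p = 0.0015), mt-Cytb (0.82, SE 0.22), mt-Nd4 (0.82, SE 0.24), mt-Nd5 (0.66, SE 0.25), mt-Nd1 (0.62, SE 0.22), mt-Rnr2 (0.57, SE 0.17) and the transfer RNA mt-Tt (1.69, SE 0.36). mt-Tt went from a lower level than wild type at day 0 (-1.50, SE 0.23) to no call at day 3 (0.16, SE 0.27, adjusted p = 0.60). DESeq2 called 3 of 20, and leaving out wild-type day 3 replicate 1 or wild-type day 0 replicate 3 gave 12. The calls of mt-Co1 and mt-Tt held under every alternative. With DESeq2 the adjusted p was 0.079 for mt-Rnr2, 0.17 for mt-Nd1, 0.089 for mt-Nd4, 0.22 for mt-Nd5 and 0.056 for mt-Cytb. mt-Nd1 and mt-Nd5 also lost their calls when any of several single libraries was left out (adjusted p from 0.066 to 0.11 and from 0.053 to 0.15).

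Between day 3 and day 10 the difference changed for 3 of 22 members, all transfer RNAs, with 1 higher and 2 lower (background: 54.2% called, 30.3% higher and 23.9% lower). The messages did not pass (mt-Co1 -0.51, SE 0.25, adjusted p = 0.097, and mt-Cytb -0.62, SE 0.27, adjusted p = 0.062). Without wild-type day 3 replicate 1, 11 members were called, all lower. Without Sam68-labelled day 10 replicate 3 or wild-type day 10 replicate 2, the counts were 1 higher and 8 or 7 lower. These counts also stand without the share of all genes called with the same library left out.

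Few mitochondrial genes were called between Quaking KO cells and wild type. At day 0, 2 of 20 members were higher and 1 lower (background: 39.7% called, 19.4% higher and 20.3% lower). The transfer RNAs mt-Tp (0.63, SE 0.20, adjusted p = 0.018) and mt-Tw (0.42, SE 0.15, adjusted p = 0.032) were higher, and mt-Nd3 was lower (-0.35, SE 0.09, adjusted p = 0.0059). mt-Nd3 lies inside the copied stretch and had 280, 275 and 238 counts in wild type and 184, 211 and 194 in the KO. mt-Co1 stood at 7570, 5234 and 5606 CPM against 6717, 5502 and 5262 (0.11, SE 0.11). Without wild-type replicate 3 only mt-Nd3 was called, and without Quaking KO replicate 1, 5 members were lower and none higher.

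At day 3 none of 21 members was called in Quaking KO cells (background: 7.01% called, 3.08% higher and 3.93% lower), with 0 at an unadjusted p under 0.05 and 0 by DESeq2. At day 10 none of 21 was called (background: 11.7%, with 4.96% higher and 6.71% lower), with 1 at an unadjusted p under 0.05 and 0 by DESeq2. mt-Co1 had log2 fold changes of 0.18 (SE 0.27) and 0.02 (SE 0.12) on these days. Leaving out Quaking KO replicate 1 at day 3 gave 1 lower member, and at day 10 leaving out wild-type replicate 1 gave 1 higher and leaving out wild-type replicate 3 gave 1 lower. The change of the Quaking difference was called for none of 19 members between days 0 and 3 (background: 15.9%, with 9.45% higher and 6.45% lower) and for none of 21 between days 3 and 10 (background: 3.58%, with 2.03% higher and 1.55% lower), with 0 at an unadjusted p under 0.05 and 0 by DESeq2 in both.

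The transfer RNAs were sparsely counted, which limits what can be said of them. Their genes are 59 to 75 bases long, shorter than a read of 125 bases. Of the 22, 10 had no count in any of the 27 libraries, which allows up to 0.0388 to 0.0531 CPM for each (3 counts of a library's total, for counting error only). The 5 others that entered no test were mt-Ti and mt-Ta, with 136 and 148 counts in all, and the 3 lowest, mt-Ts1, mt-Tl1 and mt-Tv, with 10, 4 and 3. Those with no count were mt-Tf, mt-Tc, mt-Tk, mt-Td, mt-Tn, mt-Tg, mt-Ts2, mt-Th, mt-Tr and mt-Tl2. The 4 highest, mt-Tw (tryptophan), mt-Tp (proline), mt-Tq (glutamine) and mt-Tt (threonine), held 90.1% of the 9598 transfer RNA counts. They are printed here because the transfer RNA results rest mainly on them, each 5′ to 3′ on its own strand from the GENCODE transcripts, with no bases in capitals.
mt-Tw (chrM:4950-5016, plus strand): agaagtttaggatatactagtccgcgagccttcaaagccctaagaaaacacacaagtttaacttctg
mt-Tp (chrM:15356-15422, minus strand): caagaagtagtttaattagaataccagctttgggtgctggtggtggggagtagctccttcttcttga
mt-Tq (chrM:3772-3842, minus strand): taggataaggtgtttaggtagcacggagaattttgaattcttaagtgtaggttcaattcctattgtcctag
mt-Tt (chrM:15289-15355, plus strand): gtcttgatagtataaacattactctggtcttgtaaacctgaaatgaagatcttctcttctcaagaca

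mt-Tt and mt-Tp are neighbours on opposite strands. mt-Tt had 39, 40 and 37 counts in wild type at day 0 and 12, 13 and 14 in the Sam68-labelled libraries, without overlap (-1.50, SE 0.23, adjusted p = 1.2e-05). At day 10 the order was the other way round, with 20, 16 and 11 counts in wild type and 33, 42 and 62 (1.48, SE 0.31, adjusted p = 0.0022). The interaction from day 3 to day 10 was 1.40 (SE 0.46), and it lost its call without wild-type day 3 replicate 1, Sam68-labelled day 3 replicate 3 or wild-type day 10 replicate 3 (adjusted p = 0.064, 0.065 and 0.052).

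mt-Tp had 99, 51 and 83 counts in wild type at day 3 and 184, 183 and 188 in the Sam68-labelled libraries (1.29, SE 0.22, adjusted p = 8.2e-05). At day 10 it had 181, 83 and 115 against 89, 105 and 102, which overlap, and the interaction was -1.63 (SE 0.37, adjusted p = 0.0019). mt-Tq had 18, 20 and 18 counts in wild type at day 3 and 69, 45 and 36 in the Sam68-labelled libraries (1.47, SE 0.33, adjusted p = 0.00092), with an interaction to day 10 of -1.48 (SE 0.37). mt-Tw, at 74 to 104 counts in wild type at day 0, did not differ beyond the test between Sam68-labelled cells and wild type on any day. mt-Tm was called higher in the Sam68-labelled libraries at days 0, 3 and 10. It had 10 to 21, 12 to 19 and 12 to 13 counts there, against 3 to 10, 3 to 8 and 3 to 6 in wild type. Its day 0 call was lost under 3 alternatives, and the other calls held under every alternative. mt-Tq and mt-Tp lie on the minus strand opposite to plus-strand precursors. The kit keeps strand, but whether the counting used it is not given in the sources used here.

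The nuclear genes that maintain, transcribe and process the mitochondrial genome were read from a list of 55 genes, of which 54 were found. Between day 3 and day 10 most of them fell in every line: 41 of 54 fell and 3 rose in wild type, 41 and 4 in Quaking KO, and 34 and 14 in Sam68-labelled cells. Of all genes, 36.5%, 37% and 42.5% were lower in these lines and 39.6%, 41.1% and 43.5% higher. Their median log2 fold changes were -0.58, -0.53 and -0.40, against 0.02, 0.02 and 0.00 over all genes. In Sam68-labelled cells Pprc1, a coactivator of nuclear genes for mitochondria, fell by 1.84 (SE 0.04), Tbrg4, which stabilises mitochondrial messages, by 1.58 (SE 0.04), and Polrmt, the mitochondrial RNA polymerase, by 1.15 (SE 0.04). Esrra, a nuclear receptor that drives genes of respiration, rose by 1.30 (SE 0.05). Ppargc1a, which encodes the coactivator PGC-1α, had 5 counts over the 3 Sam68-labelled libraries of day 3 and 10.6, 10.3 and 10.8 CPM at day 10, beside 7.27, 6.31 and 5.52 CPM in wild type and 2.23, 2.53 and 3.57 CPM in Quaking KO.

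Between day 0 and day 3 the list had 26 lower and 10 higher of 54 in wild type (all genes: 60.9% called, 30.1% lower and 30.8% higher). It had 28 and 12 in Quaking KO (69%, 34.8% and 34.2%), and 32 and 7 in Sam68-labelled cells (72.9%, 35.9% and 37%). Polg, the mitochondrial DNA polymerase, was among the higher ones, from 154, 162 and 161 CPM to 384, 399 and 371 CPM in Sam68-labelled cells (1.24, SE 0.04).

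Against wild type, 15 of 53 were higher and 24 lower in Sam68-labelled cells at day 0 (all genes: 74.4% called, 36.5% higher and 37.9% lower), 8 and 25 of 53 at day 3 (73.1%, 36% and 37.1%), and 12 and 9 of 54 at day 10 (50.6%, 22.8% and 27.8%). The share of the list called, both directions together, was not above that of all genes on any of the 3 days. At day 0 Pprc1 (0.43, SE 0.03), Fastkd3 (0.40, SE 0.04), a member of the same family as Tbrg4, and Tbrg4 itself (0.33, SE 0.04) were higher. Slirp, which binds mitochondrial messages and keeps them stable, was lower (-0.49, SE 0.04), as was Hsd17b10, a subunit of mitochondrial RNase P (-0.44, SE 0.04). Tefm, the elongation factor of mitochondrial transcription, was lower at day 3 (-0.70, SE 0.06), when the mitochondrial messages were higher. In the interactions, Nsun3, which modifies mitochondrial methionine transfer RNA, shifted lower from day 0 to day 3 (-0.71, SE 0.09) and higher from day 3 to day 10 (0.91, SE 0.10). Pnpt1, a mitochondrial RNA exonuclease, and Tbrg4 shifted lower in the first interval (both -0.34, SE 0.06), and Grsf1, an RNA-binding protein of mitochondrial RNA granules, and Esrra higher in the second (0.81, SE 0.10, and 0.90, SE 0.11). In Quaking KO cells 9 of 53 were higher and 10 lower at day 0, 0 and 1 of 53 at day 3, and 1 and 2 of 54 at day 10, where 39.7%, 7.01% and 11.7% of all genes were called.

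The nuclear-encoded subunits of the respiratory chain and ATP synthase, 85 genes, moved opposite to the mitochondrial messages in Sam68-labelled cells at day 3 against wild type and from day 3 to day 10, but not from day 0 to day 3. At day 3, 76 of 82 were lower and 2 higher than in wild type (all genes: 37.1% lower and 36% higher), with a median of -0.55, while the 7 mitochondrial messages outside or partly inside the copied stretch were higher. At day 0, 77 of 83 were lower and 3 higher (all genes: 37.9% and 36.5%), and at day 10, 7 of 83 were lower and 6 higher (27.8% and 22.8%). From day 0 to day 3, 55 of 84 fell and 6 rose in these cells (median -0.20; all genes: 35.9% and 37%), and mt-Cytb, mt-Nd4, mt-Nd5 and mt-Nd6 fell too. From day 3 to day 10, 66 of 84 rose and 12 fell (median 0.37; all genes: 43.5% and 42.5%), while the same 7 messages fell. In wild type 11 of 84 rose and 41 fell over that interval (39.6% and 36.5%), and in Quaking KO 10 of 83 rose and 51 fell (41.1% and 37%).

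**Figure D5:**
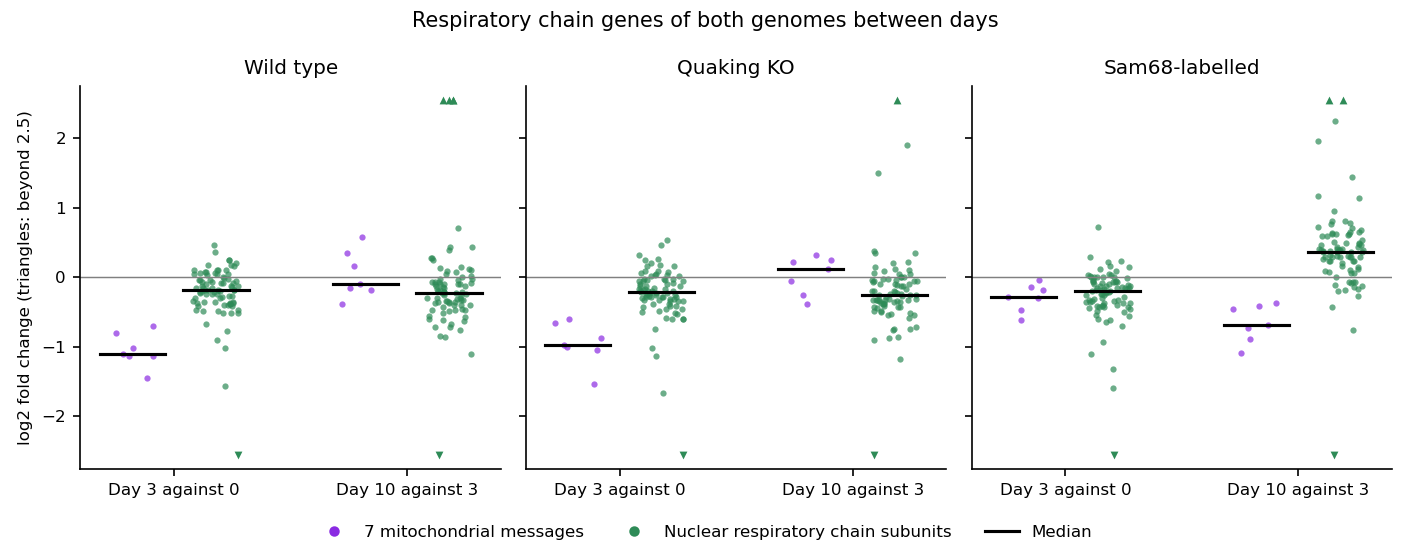
Log2 fold change between days of the 7 mitochondrial messages not wholly inside the copied stretch and of the nuclear respiratory chain and ATP synthase subunits, in each line. Points are genes, black bars medians, and triangles genes beyond 2.5 on the log2 scale. In Sam68-labelled cells between days 3 and 10, all 7 mitochondrial messages lie below 0 while the nuclear subunits have a median of 0.37.

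Markers of the cell types that embryoid bodies can hold moved with line and day. The sum of 10 heart muscle markers reached 3144 to 3385 CPM in Sam68-labelled libraries at day 10, 1518 to 1725 in wild type and 519 to 1014 in Quaking KO. Blood markers summed to 137 to 201, 479 to 623 and 352 to 456 CPM in the same order, fibroblast and matrix markers to 2734 to 4191, 6933 to 9088 and 4877 to 7417, and extraembryonic endoderm markers to 2641 to 3437, 2049 to 2787 and 1521 to 1700. At day 3 the sum of 6 primed and streak markers was 246 to 290 CPM in Sam68-labelled libraries, 687 to 971 in wild type and 495 to 756 in Quaking KO. It was lowest in replicate 1 of wild type and of Quaking KO, the replicate with the highest mitochondrial share. Stem cell markers summed at day 3 to 1254 to 1326, 1577 to 1709 and 1663 to 1867 CPM, and neural markers to 193 to 204, 163 to 171 and 152 to 154. The part of cell composition in the mitochondrial differences was not tested.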

How the data were processed

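Total RNA of 27 samples (3 lines, days 0, 3 and 10, 3 biological replicates) was sequenced after ribosomal RNA depletion. Each library was deposited by the authors as whole-number counts per gene, with STAR 2.5.3a, bcl2fastq 2.17.1.14 and build GRCm38 (mm10) named in the submitters' processing notes. The counting program, its annotation, its strand setting and its handling of reads with several origins were not given in the sources used here. Samples were grouped by their labels, and 0 columns were left unmapped. Library totals were 56461674 to 77257496 counts. Intervals and floors cover counting error only.

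Counts were tested with edgeR 4.0.16 (R 4.3.3): filterByExpr (minimum count 10, minimum total 15), TMM scaling, quasi-likelihood test and Benjamini-Hochberg adjustment over all genes tested, with genes called at an adjusted p under 0.05. Standard errors are the absolute log2 fold change divided by the square root of F. Comparisons of lines used the 9 libraries of a day, comparisons of days the 9 libraries of a line, and interactions 12 libraries. CPM values are counts per 1000000 counts of the library. Of the 37 members, 22 entered at least 1 test and 15 entered none. The code was tested on simulated data. Alternatives were DESeq2 1.42.0, library totals, nuclear counts as the scale, no filter, nuclear copies added, a replicate block, only the 2 groups compared, each replicate left out and, chosen after the data were seen, replicates 2 and 3 only of wild type and Quaking KO.

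Members and lists were chosen with earlier results of these data known. All messages and ribosomal RNAs are named. Transfer RNAs are named by level (4 highest, 3 lowest) and smallest p (3 in each family of comparisons), nuclear genes by smallest p (up to 3 in each direction and family), and copies by mean count (5 highest). mt-Tm, mt-Ty and other members named outside this rule were named after their values were seen. Sequences are from GENCODE M21 transcripts. Copies outside annotated transcripts were not searched.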

Additional observations from a re-analysis of the deposited data

Results flagged for a closer look

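For 10 results the Sam68-labelled difference from wild type itself changed between days, by the interaction term of the edgeR fit, with p-values adjusted over all genes. They were 7 of 20 members tested from day 0 to day 3 and 3 of 22 from day 3 to day 10. Of all genes tested, 33.8% and 54.2% were called over these intervals. From day 0 to day 3 the log2 change of the difference was 0.98 for mt-Co1 (adjusted p = 0.0015), 0.82 for mt-Cytb (0.0062), 0.82 for mt-Nd4 (0.011), 0.66 for mt-Nd5 (0.049), 0.62 for mt-Nd1 (0.035), 0.57 for mt-Rnr2 (0.012) and 1.69 for the transfer RNA mt-Tt (0.00096). From day 3 to day 10 it was 1.40 for mt-Tt (0.018), -1.63 for mt-Tp (0.0019) and -1.48 for mt-Tq (0.0037). Of the calls from day 0 to day 3, that of mt-Nd5 was lost under 10 alternatives and that of mt-Nd1 under 8. Those of mt-Cytb, mt-Nd4 and mt-Rnr2 were lost under 1 each. From day 3 to day 10 the call of mt-Tt was lost under 3. The Sam68-labelled libraries carry their own run of library numbers on each of the 3 days. Groups of 3 libraries were not tested for single libraries that stand apart.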

How the results depend on the processing

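Of 104 calls of single members, 72 held under every alternative and 32 were lost under at least 1, and none changed direction. The number of members called moved by more than 1.5 times as follows. For Quaking KO against wild type it was 3 at day 0 but 5 with library totals, 9 without the filter and 5 with replicates 2 and 3 only; at day 3 it was 0 but 1 without the filter and 1 with replicates 2 and 3 only, and at day 10 it was 0 but 1 without the filter. From day 3 to day 10 in wild type it was 4 but 9 with the replicate block and 10 with replicates 2 and 3 only. In Quaking KO it was 13 from day 0 to day 3 but 8 with DESeq2, and 1 from day 3 to day 10 but 2 with library totals, 6 without the filter, 4 with the replicate block and 13 with replicates 2 and 3 only. The change of the Quaking difference was called for 0 members, but for 1 without the filter in each interval and for 1 from day 3 to day 10 with replicates 2 and 3 only. The change of the Sam68-labelled difference from day 0 to day 3 was called for 7, but for 3 with DESeq2, 12 without the filter and 12 with the replicate block. From day 3 to day 10 it was called for 3, but for 10 with library totals, 11 without the filter, 5 with the replicate block and 11 with replicates 2 and 3 only. The cause of these moves was not tested. Counts of members under an alternative, here, above and below, are given without the share of all genes called under it.

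Leaving out 1 library gave, for Quaking KO against wild type, 1 to 5, 0 to 1 and 0 to 1 calls at days 0, 3 and 10, and for the Sam68 label 11 to 15, 14 to 19 and 9 to 12. From day 0 to day 3 it gave 11 to 14 in wild type, 7 to 17 in Quaking KO and 7 to 10 in Sam68-labelled cells, and from day 3 to day 10 it gave 3 to 9, 1 to 12 and 9 to 11. The interactions gave 0 to 0 for Quaking in both intervals and 5 to 12 and 3 to 11 for the Sam68 label. Mean mitochondrial shares without 1 library ran from 6.32% to 9.31% for Quaking KO at day 3, against 8.31% with all 3. In wild type at day 3 they ran from 6.89% to 9.00%, against 8.16%. With 3 libraries, a mean without 1 of them always lies within 1 SD, so that measure could not show a change.

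Pairing of libraries was judged on 14662 genes other than the members, and the members' own deviations were not correlated. Over those genes, no comparison had every pair of same-numbered libraries deviate together with a correlation over 0.1. That was the level asked for to treat them as pairs. The correlations were 0.407, 0.148 and 0.0846 for Quaking KO and wild type at day 3, 0.186, 0.0324 and 0.211 in wild type between days 0 and 3, where all 3 libraries correlated best with their own number, and 0.284, 0.0304 and 0.184 between days 3 and 10. A batch shared by same-numbered libraries was not tested. Library totals as the scale moved the median of all genes to 0.112 and -0.111 for the Sam68 label at days 0 and 10, to 0.107 and 0.159 in wild type from day 0 to 3 and from day 3 to 10, to 0.117 and 0.127 in Quaking KO, and to -0.183 for the change of the Sam68-labelled difference from day 3 to day 10. Counts over the nuclear lists were not recomputed under the alternatives. Of the 22 transfer RNAs, 4 had at least 10 counts in every library.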
